A study of Mus musculus with 6 samples.

Results

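The 8 genes described here encode proteins that epithelial cells of the uterus and other mucosal organs release into the lumen or carry on their apical surface. They were chosen by name: Ltf (lactotransferrin), Lcn2 (lipocalin 2), Slpi (secretory leukocyte peptidase inhibitor), Wfdc2 (a WAP four-disulfide core protein), Muc1 (mucin 1), Psca (prostate stem cell antigen), Pigr (polymeric immunoglobulin receptor) and Clu (clusterin). All probe sets annotated to these symbols were taken, 13 in number, for 8 of the 8251 genes named on the array. The mice were C57Bl/6 females, 10 to 11 weeks of age, whose whole uteri were taken 7 days after removal of the ovaries. Each group was 1 array (Affymetrix U74Av2) of RNA from pooled uteri. The vehicle group was killed 24 h after an injection under the skin, and the estradiol groups 1, 3, 6, 12 or 24 h after 0.05 µg of estradiol (E2) per mouse. All groups, vehicle included, lacked ovaries. Of the estradiol arrays, only that of 24 h thus matches vehicle in hours since injection. On the others, estradiol and the injection itself cannot be told apart.

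The lining of the uterus is a simple columnar epithelium whose secretions feed, lubricate and defend the lumen, and which answers to ovarian steroids. Estradiol acts through estrogen receptors in epithelium and stroma, and repeated or strong exposure makes the rodent epithelium proliferate, secrete and thicken. Lactotransferrin is an iron-binding protein of milk, mucosal secretions and neutrophil granules, and is a textbook estrogen-regulated secretory product of mouse uterine epithelium. Lipocalin 2 binds bacterial siderophores and so withholds iron, whereas Slpi and Wfdc2 are small secreted proteins with WAP domains, Slpi being an inhibitor of neutrophil elastase. Mucin 1 is a heavily glycosylated protein of the apical membrane, and Psca is a small surface protein of the Ly6 family with a lipid anchor. Pigr carries dimeric IgA across epithelium, and clusterin is a secreted chaperone found at raised levels in many regressing tissues.

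With 1 array in each group there was no spread between replicates, so no difference was tested and neighbouring values in an order cannot be judged against an error. Signals were compared on arrays scaled to the same trimmed mean, above a floor of 142.8 signal units. All 8 genes had a probe set above the floor on the vehicle array itself, and 8 of the 13 probe sets were above it on all 6 arrays. The arrays for vehicle and for 1, 6, 12 and 24 h correlated at a Spearman's rho of 0.929 to 0.968 across probe sets, over 10 pairs. The array labelled 3 h correlated with those 5 at 0.843 to 0.857 and is described apart. In whole-organ RNA, fewer cells of a type and less RNA per cell cannot be told apart.

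The labelled tissue was checked against its markers. All 12 measured markers of simple epithelium were at or above the floor on the vehicle, 1, 6, 12 and 24 h arrays, with summed signals of 14207, 12381, 13447, 14380 and 18517. On the array labelled 3 h, 2 of the 12 were, with a sum of 1495. All 9 measured smooth muscle markers were likewise at or above the floor on those 5 arrays. The 7 measured adipocyte markers were too, but their sums differed more, at 13853, 14729, 7601, 5526 and 5003 in the same order. At 24 h, 4 of these 7 were at least 2-fold lower than vehicle and 0 higher. Sums of 12 stromal fibroblast markers also differed, at 65471, 57210, 38747, 53628 and 87855. At 6 h, 5 of these 12 were at least 2-fold lower than vehicle and 1 higher. Of 10 endothelium markers, 8 were at or above the floor at 6 and at 12 h, and all on the vehicle, 1 and 24 h arrays. Spint2, also listed for simple epithelium, was below the floor on every array and so not among the 12 measured.

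Promoter windows of 250 bases before to 50 bases after the annotated start were held for 6 of the 8 genes in a RefSeq table of the assembly GRCm38.p6. They are shown for Lcn2 and Muc1, which stood at least 2-fold above vehicle at 24 h, and for Ltf and Wfdc2, the members farthest below vehicle at 12 h. The windows lie at chr2:32387690-32387989 on the minus strand for Lcn2, chr3:89228806-89229105 on the plus strand for Muc1, chr9:111019042-111019341 on the plus strand for Ltf and chr2:164562465-164562764 on the plus strand for Wfdc2. Each is written 5′ to 3′, and capitals mark a match to an estrogen response element half-site (GGTCA), a GC box (GGGCGG) or a TATA box (TATAAA), on either strand.
Lcn2: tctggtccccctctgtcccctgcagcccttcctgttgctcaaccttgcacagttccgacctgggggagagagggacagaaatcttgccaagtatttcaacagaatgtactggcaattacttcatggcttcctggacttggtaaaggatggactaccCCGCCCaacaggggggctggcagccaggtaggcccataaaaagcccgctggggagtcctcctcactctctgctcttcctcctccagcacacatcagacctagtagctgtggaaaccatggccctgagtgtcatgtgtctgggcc
Muc1: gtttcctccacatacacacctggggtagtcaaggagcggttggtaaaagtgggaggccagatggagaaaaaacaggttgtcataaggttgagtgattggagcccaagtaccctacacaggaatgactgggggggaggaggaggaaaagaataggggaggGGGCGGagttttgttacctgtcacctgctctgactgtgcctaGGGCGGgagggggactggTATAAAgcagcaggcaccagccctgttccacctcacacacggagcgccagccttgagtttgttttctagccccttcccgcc
Ltf: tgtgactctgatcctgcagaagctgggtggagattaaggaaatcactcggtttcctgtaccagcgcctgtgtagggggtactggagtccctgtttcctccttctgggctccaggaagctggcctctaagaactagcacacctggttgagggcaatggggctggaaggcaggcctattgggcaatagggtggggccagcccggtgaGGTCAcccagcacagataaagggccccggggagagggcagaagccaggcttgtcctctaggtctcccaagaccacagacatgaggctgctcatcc
Wfdc2: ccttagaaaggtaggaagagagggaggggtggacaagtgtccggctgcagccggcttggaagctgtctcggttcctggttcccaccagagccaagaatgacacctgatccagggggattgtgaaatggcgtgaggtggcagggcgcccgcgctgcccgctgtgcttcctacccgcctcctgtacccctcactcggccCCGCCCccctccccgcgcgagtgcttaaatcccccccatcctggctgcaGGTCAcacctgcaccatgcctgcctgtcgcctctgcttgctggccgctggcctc

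The half-site occurred once each in Ltf, with its first base at -45, in Wfdc2 at -4, and in Pigr at -12, and not in the windows of Lcn2, Muc1 or Slpi. These are 3 of 6 windows, while 40.2% of 27025 promoter windows of the same length held it. The full palindrome (GGTCANNNTGACC), which contains the half-site, was in none of the 6 and in 0.0666% of all windows. The GC box was in Lcn2, Wfdc2 and Muc1, the last with 2 matches, and in 35.9% of all windows. The TATA box was in Muc1 alone among the 6, at -31, and in 14.2% of all. The AP-1 motif (TGANTCA) matched none of the 6 windows and 7.93% of all. These matches describe letters and do not show binding.

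Read by the brightest probe set of each gene, Lcn2, Psca and Muc1 came to stand at least 2-fold above vehicle over the time course, and the other 5 genes stayed within 2-fold of it except Wfdc2, which was lower at 12 h. A second probe set of Slpi was more than 2-fold above vehicle at 24 h, while another stood at a log2 ratio of -0.16. The second set of Lcn2 stayed near vehicle, with log2 ratios of -0.11, 0.13 and 0.07 at 6, 12 and 24 h. The counts that follow use the brightest sets. No member was 2-fold away at 1 h, where 0.853% of 6562 measured genes were at least 2-fold higher and 0.351% lower. At 6 h, 1 member was higher (Lcn2) and none lower, against 6.34% and 8.35% of genes. At 12 h, 2 were higher (Lcn2 and Psca) and 1 lower (Wfdc2), against 6.16% and 6.93%. At 24 h, 3 were higher (Lcn2, Psca and Muc1) and none lower, against 3.41% and 3.54%. The median log2 ratios of the 8 members were 0.11, -0.05, -0.38 and 0.34 for 1, 6, 12 and 24 h, each beside a median of 0 over the measured genes. These medians hide a wide span, since at 24 h the members ran from a log2 ratio of -0.53 for Wfdc2 to 4.22 for Psca.

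**Figure D1:**
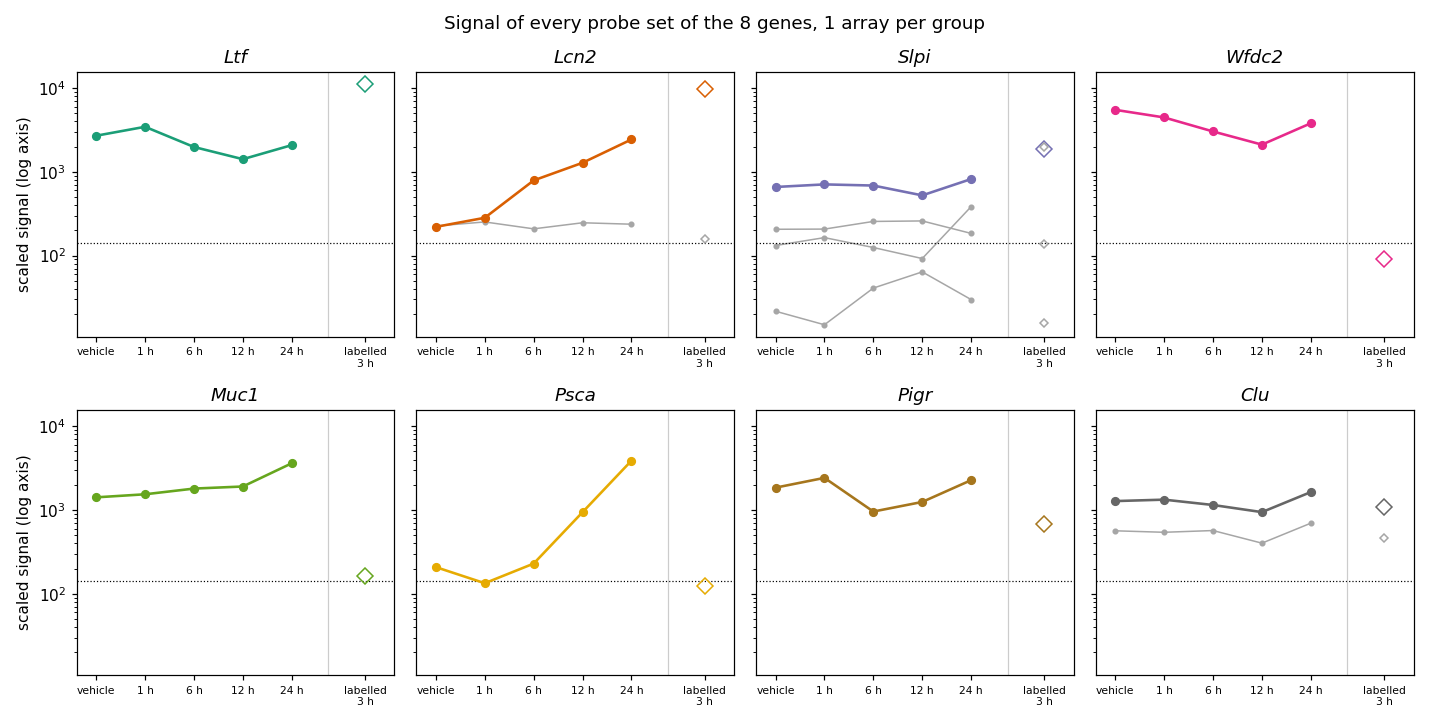
Scaled signal (log axis) of every probe set of the 8 genes on the vehicle, 1, 6, 12 and 24 h arrays, with the array labelled 3 h as an open diamond to the right of the grey line. The coloured line is the brightest probe set, grey lines are the other probe sets of the gene, and the dotted line is the floor of 142.8. Psca climbs from 209 in vehicle to 3874 at 24 h and Lcn2 from 220.3 to 2428, whereas Ltf, Slpi, Wfdc2 and Clu are lowest at 12 h by their brightest sets.

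Lactotransferrin stood above vehicle at 1 h alone. From vehicle through 1, 6, 12 and 24 h, the signals of Ltf were 2689, 3437, 1975, 1413 and 2078. The 1 h array was thus highest and the 12 h array lowest, with 2.43-fold between them. Against vehicle, Ltf was 1.28-fold higher at 1 h, and then 1.36-fold, 1.90-fold and 1.29-fold lower at 6, 12 and 24 h, with a log2 ratio of -0.37 at the last. None of these passed 2-fold. Of the 3 other genes of the transferrin family and its receptors that were measured, Tfrc, the transferrin receptor that takes iron into cells, was 2.67-fold higher at 6 h, from 1508 to 4024, and none was 2-fold away at 1, 12 or 24 h.

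Lipocalin 2, the other iron-withholding protein, was higher on each later array than on the one before it. The signals of Lcn2 were 220.3 in vehicle and 283, 788, 1279 and 2428 at 1, 6, 12 and 24 h. These were 1.28-fold, 3.58-fold, 5.81-fold and 11.0-fold above vehicle, with a log2 ratio of 3.46 at the last time. Among the 6562 measured genes Lcn2 ranked 71, 14 and 15 from the highest at 6, 12 and 24 h. The 6 h signal was also 2.79-fold above that of 1 h, a step in which 6.64% of genes were at least 2-fold higher. A second probe set annotated to the gene, whose identifier carries the suffix _r_at that Affymetrix gave to sets whose probes could not meet all of its design rules, did not show this. It read 226, 252, 209, 246 and 237 over the same 5 arrays. The pattern of Lcn2 therefore rests on 1 probe set, and the median over both would put the gene at a log2 ratio of 0.86 at 6 h and 1.77 at 24 h.

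The other lipocalins did not share this course. Of 18 symbols listed for the family, 14 were on the array and 8 were measured, Lcn2 included. Of the other 7, none was 2-fold higher at 6, 12 or 24 h, and 1 was 2-fold lower at 24 h. That gene was Apod, a lipid-binding apolipoprotein, whose signal was 410.4 in vehicle and 91.8 at 24 h, at least 2.87-fold lower. Mup5 and Mup3, genes of the major urinary protein family, were 2.52-fold higher at 1 h and 2.06-fold lower at 6 h, in that order. Members of that family are near-identical copies whose probe sets may not tell them apart.

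Slpi and Wfdc2 both carry WAP domains and lie on chromosome 2 with 7 coding genes between them in the RefSeq table, but their signals differed in course. By its brightest probe set Slpi stayed near vehicle, with 658, 707, 685, 523 and 819 from vehicle through 1, 6, 12 and 24 h. The widest of these gaps, between 12 and 24 h, was 1.57-fold. A second probe set read 132, 164, 125, 92.3 and 384 over these arrays, so that only 24 h and, narrowly, 1 h were above the floor. By that set, Slpi was at least 2.69-fold above vehicle at 24 h, while the brightest gave 1.24-fold. The remaining 2 sets, both of the _r_at kind, gave a log2 ratio of -0.16 at 24 h or lay below the floor on every array. The 4 probe sets of Slpi thus do not give 1 answer at 24 h.

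Wfdc2 was lower than vehicle on every estradiol array. Its signals were 5475 in vehicle and 4444, 3023, 2106 and 3786 at 1, 6, 12 and 24 h. The gene was 1.81-fold, 2.60-fold and 1.45-fold lower than vehicle at the last 3 of these times. At 12 h it ranked 184 from the lowest of 6562 genes, and it was the only member 2-fold below vehicle at any of these times. Its signal at 24 h lay again above that at 12 h, by a log2 difference of 0.85.

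Of 19 secreted protease inhibitors and WAP genes listed, 11 were on the array and 7 measured, Slpi and Wfdc2 included. Of the other 5, 1 was 2-fold higher at 1 h, 2 were 2-fold lower at 6 h, 2 at 12 h and none at 24 h. Cst3, the cathepsin inhibitor cystatin C, read 7457 in vehicle, 3655 at 6 h, 3693 at 12 h and 4242 at 24 h, being 2.04-fold and 2.02-fold lower at 6 and 12 h. Spint1, an epithelial inhibitor of membrane-bound serine proteases, was 2.11-fold lower at 6 h and 2.06-fold lower at 12 h, with 664 at 24 h beside 557 in vehicle. Wfdc18, a further WAP gene, was just past 2-fold higher at 1 h, from 156 to 314, and read 179, 179 and 177 afterwards.

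**Figure D2:**
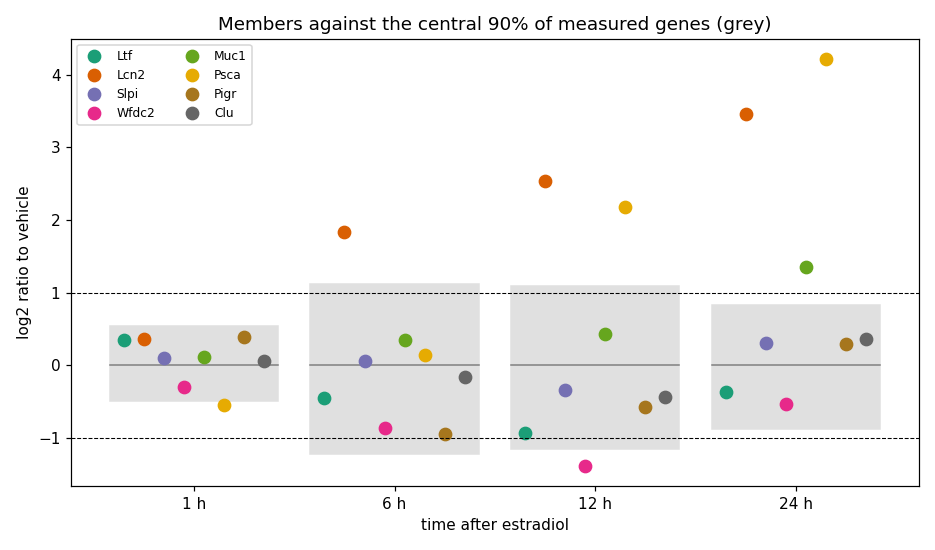
Log2 ratio to vehicle of the brightest probe set of each of the 8 genes (coloured points) at 1, 6, 12 and 24 h after estradiol. Grey boxes span the 5th to 95th percentile of 6562 measured genes, grey lines their median, and dashed lines mark 2-fold. Lcn2 lies above the box from 6 h on, Psca at 12 and 24 h and Muc1 at 24 h, while Wfdc2 lies below it at 12 h and Psca, whose 1 h signal was under the floor, just below it at 1 h.

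Of the 2 surface proteins, Psca showed the highest fold of all 8 genes, and late. The signals of Psca were 209, 134, 229.7, 942 and 3874 from vehicle through 1, 6, 12 and 24 h. At 6 h the gene was 1.10-fold above vehicle. At 12 h it was 4.52-fold and at 24 h 18.6-fold above it, with a log2 ratio of 4.22. It ranked 5 from the highest of 6562 genes at 24 h. The step from 6 to 12 h was 4.10-fold, rank 4 of all measured genes, and the step from 12 to 24 h was 4.11-fold, rank 21. The 1 h value lay below the floor.

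Psca belongs to the Ly6 and uPAR family of small, disulfide-rich surface proteins, of which 8 of 14 listed symbols were measured. Of the 7 others, Ly6g reached the floor on the array labelled 3 h alone. Among the remaining 6, 1 was 2-fold higher at each of 6, 12 and 24 h, while 2 were 2-fold lower at 6 h and at 12 h, and 1 was at 24 h. The higher one each time was Ly6d, a surface antigen of keratinocytes and lymphocytes that lies on chromosome 15 as Psca does, with 5 coding genes between them. Ly6d read 1160.4, 1215, 2379.9, 3138 and 5466 over the same arrays, so it was already 2.05-fold higher at 6 h, when Psca was near vehicle. At 24 h it was 4.71-fold higher. Cd59a, which guards cells against the complement membrane attack complex, went the other way, at 1227 in vehicle, 373 at 6 h, 286 at 12 h and 580.1 at 24 h, that is 4.28-fold lower at 12 h. Its paralogue Cd59b was at least 2.45-fold lower at 6 h, with 349.1 at 24 h beside 349.7 in vehicle, and Ly6e, at 15951 in vehicle, was 2.02-fold lower at 12 h.

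Muc1, the membrane mucin, stood 2-fold away from vehicle at 24 h alone. Its signals were 1416 in vehicle and 1540.2, 1801, 1907 and 3609 at 1, 6, 12 and 24 h. The values before 24 h were at most 1.35-fold above vehicle, and that at 24 h was 2.55-fold above it, rank 116 of 6562 genes. The step from 12 to 24 h was 1.89-fold. Of 8 other mucins and epithelial membrane glycoproteins measured, at 24 h 1 was 2-fold higher and none was lower. Their median log2 ratio was 0.57. The higher gene was Ceacam1, a cell adhesion molecule of epithelium and leukocytes, with 211, 335, 417, 443 and 702 from vehicle to 24 h, the last 3.33-fold above vehicle. Cd164, a sialomucin, was 2.01-fold higher at 6 h and 1.09-fold at 24 h, and Dsg2, a desmosomal cadherin, 2.23-fold higher at 6 h and 1.77-fold at 24 h.

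The IgA transporter gene Pigr had its lowest signal at 6 h. It read 1847 in vehicle and 2417, 959, 1247 and 2269 at 1, 6, 12 and 24 h. The gene was 1.93-fold lower than vehicle at 6 h and 1.48-fold lower at 12 h, neither past 2-fold, and 1.23-fold higher at 24 h. Against the 1 h array, the 6 h signal was 2.52-fold lower, where 7.30% of genes were at least 2-fold lower. Among 8 other genes of IgA transport and immunoglobulin, none was 2-fold lower at 1, 6, 12 or 24 h. Xbp1, a transcription factor of secretory and plasma cells, was 2.08-fold higher at 6 h and 2.05-fold higher at 12 h. Igha, the IgA heavy chain gene, read 1496 in vehicle and 1026 at 24 h, and Jchain, which joins IgA into dimers, 322 and 243.

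Clusterin differed from vehicle by at most 1.35-fold by its brightest probe set, on which Clu read 1278, 1329, 1148, 944 and 1636 from vehicle through 1, 6, 12 and 24 h. The second set read 565, 542, 569, 403 and 697 on the same arrays in that order, so both were lowest at 12 h and highest at 24 h, each with 1.73-fold between these 2 arrays. The suffix of the second set, _f_at, marks probes that match more than 1 transcript of a family. At 24 h the log2 ratio to vehicle was 0.36 and 0.30 by the 2 sets. Of 9 other extracellular proteins listed with clusterin, 8 reached the floor outside the array labelled 3 h, and of these 2 were higher and 2 lower at 24 h. A2m, the protease trap alpha-2-macroglobulin, was at least 9.21-fold higher at 24 h, from 133 to 1315, and Timp1, an inhibitor of matrix metalloproteinases, 5.21-fold higher at 12 h and 2.82-fold at 24 h. Apoe, a lipid carrier, was 3.61-fold lower at 12 h and 2.79-fold lower at 24 h. Cp, the copper-binding ceruloplasmin, was at least 2.82-fold lower at 12 h, from 402 to 141, and 1.59-fold higher at 24 h.

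Of the 10 antimicrobial and innate defence genes measured from a further list, Mpo and S100a9 reached the floor on the array labelled 3 h alone. Of the other 8, none was 2-fold higher at 1, 6, 12 or 24 h. Ang, the ribonuclease angiogenin, was 2.56-fold lower at 6 h, 2.81-fold lower at 12 h and 1.27-fold lower at 24 h. Lbp, which binds bacterial lipopolysaccharide, was 2.08-fold lower at 12 h and 1.99-fold lower at 24 h. The median log2 ratio of these 8 was -0.22 at 24 h, beside 0 over all measured genes.

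Between 12 and 24 h the signal was higher at 24 h for all 8 members, while 46.2% of the measured genes had a log2 ratio above 0 between these arrays. That share was counted after the floor. Genes below the floor on both arrays thus had a ratio of 0 and lowered it, whereas all 8 members were above the floor on both. The median log2 difference of the 8 was 0.85, from 0.56 for Ltf to 2.04 for Psca, beside a median of 0 over all genes. Only Psca passed 2-fold in this step, where 2.88% of genes were at least 2-fold higher and 2.47% lower. These are the brightest probe sets, and the second set of Lcn2 read 246 at 12 h and 237 at 24 h. An _r_at set of Slpi read 259 and 184 at these times, 1.41-fold lower at 24 h. The second sets of Slpi and Clu were higher at 24 h, and the remaining set of Slpi lay below the floor at both times. In this step the signal was also higher at 24 h for 9 of 12 markers of simple epithelium, whose sum was 1.29-fold that at 12 h, and for 10 of 12 markers of stromal fibroblasts, whose sum was 1.64-fold that at 12 h. The median log2 differences of these marker lists were 0.43 and 0.51. Their part in the members' differences was not tested. Between 6 and 12 h, 4 members were higher and 4 lower, with Psca alone past 2-fold, against 1.65% of genes that were higher and 1.33% that were lower by this much.

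The gene nearest in course was sought for each member by the root mean square difference of log2 ratios to vehicle over 4 arrays, among 5108 other genes whose signal reached 352.7 on at least 1 array. Nearest to Psca were Krtdap (0.39), a keratinocyte differentiation gene, Krt10 (0.48), a keratin of the upper layers of stratified epithelium, and Sprr1a (0.62), a cornified envelope protein. These were 18.0-fold, 15.1-fold and 25.6-fold above vehicle at 24 h. Nearest to Lcn2 were Dsc2 (0.30), a desmosomal cadherin, Gjb2 (0.45), a gap junction protein, and Fdps (0.49), an enzyme of isoprenoid synthesis. They stood 10.2-fold, 17.4-fold and 7.85-fold above vehicle at 24 h.

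Nearest to Muc1 was Trim46 (0.12), at 2.63-fold above vehicle at 24 h, which is the next coding gene on chromosome 3 in the RefSeq table, followed by the homeobox gene Pitx1 (0.14) and the chloride channel family gene Clic3 (0.19). Members without a large fold had closer matches. Clu was nearest to Prom1 (0.08), an epithelial surface glycoprotein, Slpi to Erlin1 (0.05), Ltf to D430019H16Rik (0.05), Wfdc2 to the lysosomal mannosidase gene Man2b1 (0.09) and Pigr to Ap5s1 (0.12). Among the members themselves, Slpi and Clu were nearest to each other (0.12), and Ltf was nearest to Wfdc2 (0.45).

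**Figure D3:**
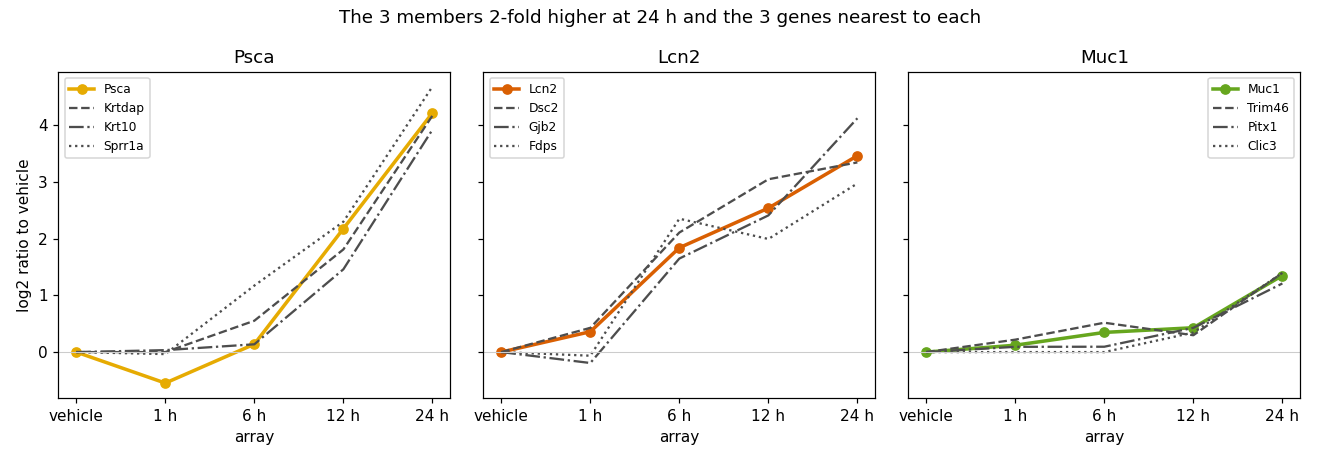
Log2 ratio to vehicle on the vehicle, 1, 6, 12 and 24 h arrays for Psca, Lcn2 and Muc1 (coloured) and for the 3 genes nearest to each in root mean square difference (dark lines). Psca and its nearest genes leave the vehicle level mostly after 6 h, Lcn2 and its nearest genes at 6 h, and Muc1 and its nearest genes at 24 h.

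Ltf, Lcn2 and Slpi are also genes of neutrophils, so granulocyte markers were read on the same arrays. Of 13 measured markers, 6 lay below the floor on all of the vehicle, 1, 6, 12 and 24 h arrays. They counted as measured only through the array labelled 3 h, so none of them could pass 2-fold on the other arrays. These 6 included Ngp, a neutrophil granule protein, with 22.5 in vehicle and 38.5 at 24 h, and S100a9, a calcium-binding protein abundant in neutrophils, with 16.7 and 72.5. The granule gene Camp read 285 in vehicle, 185 at 6 h and 266 at 24 h. S100a8 read 114, 232, 225, 144 and 103 from vehicle through 1, 6, 12 and 24 h, and Elane 276, 282, 451, 279 and 211. Mmp9 read 151 in vehicle and 212 at 1 h, and lay below the floor at 6, 12 and 24 h. Prtn3 was above the floor at 1 h alone, at 156, and Itgam at 24 h alone, at 169. Of the 7 markers that reached the floor on these arrays, 1 was at least 2-fold above vehicle at each of 1, 6 and 24 h, and none at 12 h. That gene was Csf3r, the receptor for granulocyte colony-stimulating factor, which read 631 in vehicle and 1350, 1312, 912 and 1316 on the later arrays, being 2.14-fold, 2.08-fold and 2.09-fold higher at 1, 6 and 24 h. The summed signals of the 13 were 1823, 2863, 2605, 1868 and 2461 in the same order of arrays, with 4 to 6 of 13 at or above the floor. Csf3r made up 631 of the 1823 in vehicle and 1350 of the 2863 at 1 h, and markers below the floor are included in these sums. The part of granulocytes in the members' signals, that of Lcn2 included, was not tested.

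The array labelled 3 h gave another picture for 6 of the 8 genes. Lcn2 read 9662 there, 43.9-fold above vehicle, Ltf 11157, 4.15-fold above, and Slpi 1859, 2.82-fold above by its brightest probe set and at least 14.0-fold by the second, from 132 to 1997. The second set of Lcn2 went the other way, at 159 beside 226 in vehicle, 1.42-fold lower. An _r_at set of Slpi read 139 beside 206, at least 1.44-fold lower, and its other _r_at set lay below the floor on both arrays. At least 2-fold higher were 10.8% of the measured genes. Wfdc2 read 90.1, at least 38.3-fold lower than vehicle and rank 2 from the lowest, Muc1 165, 8.60-fold lower, and Pigr 683, 2.71-fold lower, where 12.3% of genes were at least 2-fold lower. Psca, at 123, was below the floor, and Clu, at 1091, was 1.17-fold lower. By their brightest probe sets, Ltf, Lcn2 and Slpi were thus higher than vehicle on this array and Wfdc2, Muc1 and Pigr lower. Clu was near vehicle and Psca was below the floor. The first 3 are also known from neutrophils, but the part of any cell type in these differences was not tested.

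The marker lists of the array labelled 3 h moved alongside. All 13 granulocyte markers were at or above the floor and 12 were at least 2-fold above vehicle, with a summed signal of 112412 beside 1823 in vehicle, 61.7-fold higher. Of the 13, 6 reached the floor on this array alone, so their place above it here was fixed by the choice of measured genes. The other 7 were each at least 2-fold above vehicle. Camp read 21352, S100a8 22112, S100a9 17146 and Ngp 16949. Of 12 markers of simple epithelium, 11 were at least 2-fold lower, and the keratins Krt8, Krt18 and Krt19 read 107, 64.9 and 5.20 beside 2193, 2285 and 2198 in vehicle. Smooth muscle markers were 2-fold lower for 7 of 9. Markers of macrophages and leukocytes were 2-fold higher for 9 of 12, and of B and plasma cells for 7 of 9. In these lists, Fcer1g and Pou2af1 reached the floor on this array alone. Of the 12 epithelium markers, 10 were thus below the floor on this array, while Prom1 read 703 and Cdh1 318. The stromal fibroblast markers were mixed, with 2 of 12 at least 2-fold higher, 7 lower and a sum of 75374 beside 65471 in vehicle. The collagen gene Col1a1 read 22461 beside 10341, and Lum, a matrix proteoglycan, 8306 beside 5896, whereas Hoxa11 and Hoxa10, homeobox genes of the uterus, read 14.6 and 2.20 beside 2662 and 368. Endothelium markers summed to 6706 here and 7819 in vehicle, and 2 of these 10 fell by 2-fold or more. The cause of the low epithelial, smooth muscle and Hox signals was not tested, nor was the label as uterus. No ratio of the time course above uses this array, but it does enter the floor, the choice of brightest probe set and the count of measured genes. The same array also enters the cut-off of 352.7 and the choice of genes for the nearest-gene search. Without it the floor would be 144.3, no member would change its brightest probe set and 6326 genes would be measured. Of the 6562, 231 reached the floor on this array alone.

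**Figure D4:**
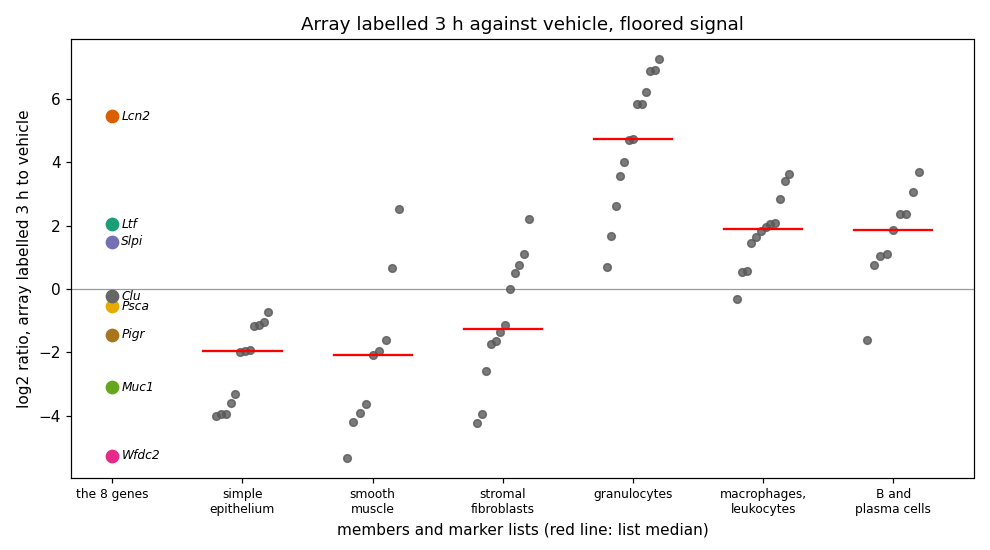
Log2 ratio of the array labelled 3 h to vehicle, after the floor, for the 8 genes (coloured, named) and for the measured genes of 6 marker lists (dark points, with a red line at the list median). Granulocyte markers have a median of 4.73 and simple epithelium markers of -1.97, and Lcn2 lies at 5.46 and Wfdc2 at -5.26. Of the 13 granulocyte markers, 6 reached the floor on this array alone.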

How the data were processed

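Gene expression in uteri of ovariectomised mice was measured on 6 arrays, with 1 array of pooled RNA per group. The deposited intensity values, 1 linear signal per probe set and array, were made by the authors with MAS5, per the submitters' processing notes, with no version named there. From the values, the authors had scaled each array to a 2% trimmed mean of 500.2 to 500.3. No detection calls were used here.

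Of 12488 probe sets, 66 controls were left out, and of the rest 10833 had 1 gene symbol, 396 several and 1193 none. Symbols were updated through the gene identifier (10817 matched in a RefSeq table of GRCm38.p6). Arrays were rescaled to the same trimmed mean, values below the 40th percentile (142.8) raised to it, and log2 taken. Each gene was read by its brightest probe set on average over the arrays, and 6562 genes reached the floor on at least 1 array, the array labelled 3 h included (6331 on at least 1 of the other 5). A fixed minimum of 2-fold counted genes, and a fold against the floor is written as "at least". No test was possible, and precision is limited by the number of arrays. The share of probe sets reaching the floor was 58.8% to 61.7%.

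The members and 16 lists (213 symbols, 172 on the array) were chosen with earlier results of these data known. From each list, up to 4 genes with the largest log2 ratio at 1, 6, 12 or 24 h, if 2-fold or more, could be named, together with the 3 genes nearest to each member among those reaching the 60th percentile (352.7). Markers of the array labelled 3 h were named after their values were seen, as were Igha, Jchain and the granulocyte markers. Computations used Python 3.11.15 with numpy, pandas and scipy, and were tested on simulated data. In all, 9 alternatives were run.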

Additional observations from a re-analysis of the deposited data

Results flagged for a closer look

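Signals above vehicle were found on the array labelled 3 h, which the time course does not use. Lcn2 read 9662 there beside 220.3 in vehicle, 43.9-fold higher. Ltf read 11157 beside 2689, 4.15-fold higher. Slpi read 1859 beside 658 by its brightest probe set and 1997 beside 132 by the second, at least 14.0-fold higher. The second set of Lcn2 read 159 beside 226, and an _r_at set of Slpi 139 beside 206, both lower than vehicle. The remaining set of Slpi lay below the floor on both arrays. On the same array the 13 granulocyte markers summed to 112412 beside 1823 in vehicle, and 6 of them reached the floor there alone. The 12 epithelium markers summed to 1495 beside 14207. The part of either list in these signals was not tested.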

How the results depend on the processing

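Of 280 log2 ratios of members to vehicle recomputed under 9 alternatives, 277 kept their side of 2-fold, 3 did not, and none past 2-fold changed sign. Many of these could hardly change. The deposited arrays already shared nearly the same trimmed mean, 5 members had 1 probe set, and another floor leaves a ratio as it is where both signals lie above it. With a gene read as the median over its probe sets, 0 members were 2-fold higher at 6 h, since Lcn2 stood at a log2 ratio of 0.86. With vehicle and 1 h averaged as the reference, 1 member was 2-fold lower at 6 h (Pigr, -1.14) and 2 at 12 h (Wfdc2 and also Ltf, -1.11), for which the 1 h array lies above vehicle for Ltf and Pigr. The other counts of members stayed the same under the alternatives that applied to them, as did the count of 8 members with a higher signal at 24 h than at 12 h, a comparison added after the data were seen. Over all settings, the log2 ratio at 24 h ran from 3.46 to 4.49 for Psca, from 1.77 to 3.52 for Lcn2 and from 1.29 to 1.37 for Muc1. The counts over all genes depended on the floor. With it at the 20th percentile, 258 genes were higher and 161 lower at 1 h, 838 lower at 6 h, 685 lower at 12 h, and 452 higher and 441 lower at 24 h, and at the 60th percentile 24 and 5, 308, 273, and 136 and 139. The main counts were 56 and 23, 548, 455, and 224 and 232. With no floor and a pseudocount of 16, the counts for 1, 6, 12 and 24 h were 344, 655, 654 and 510 higher and 193, 868, 718 and 451 lower, beside main counts of higher genes of 416 and 404 for 6 and 12 h. No replicate could be left out, and no paired analysis was possible because each group had 1 array.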
